A study of Mus musculus with 30 samples.

Results

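The comparison concerned pacDNA-L9 at 21.2 mg/kg, calculated on the mass of its antisense oligonucleotide, against nontreated HSA-LR mice (NT). Its members were the 3 treated animals A, B and C of 30 sequenced animals, chosen by the dose in their labels, and the controls were all 8 NT animals. HSA-LR mice (line HSA-LR20b on FVB/N) carry a human skeletal actin transgene with an expanded CTG repeat, which the actin promoter expresses in skeletal muscle, and NT animals carry the same transgene and received no injection. pacDNA-L9 was given through the tail vein to mice about 8 weeks old, and the quadriceps was taken 2 weeks after the last injection. The series also holds WT mice (5 animals, FVB/N without the transgene). Further HSA-LR animals received other doses of pacDNA-L9 (5.3 mg/kg in 4 animals, 42.4 mg/kg in 3), the unconjugated oligonucleotide (free L9, 5.3 mg/kg, 3 animals), the polymer alone (Brush, 40 nmol, 2 animals) or a conjugate with a scrambled oligonucleotide (pacDNA-Scr, 2 animals, dosed as free L9). The higher doses were built up from several injections, so dose and number of injections cannot be told apart. Injection, polymer and oligonucleotide cannot be told apart in a comparison with uninjected animals either. The human transgene's own reads are not analysed here.

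In myotonic dystrophy type 1, RNA with expanded CUG repeats folds into hairpins in the nucleus and binds muscleblind proteins, which then no longer reach the pre-mRNAs whose splicing they regulate. L9 is a short locked nucleic acid oligonucleotide complementary to the CUG repeat, and pacDNA joins it to a bottlebrush polymer with many polyethylene glycol side chains. Macrophages take up circulating particles and polymers, digest them in lysosomes, and live between the fibres of healthy muscle as well as entering it after injury.

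Poly(A)-enriched RNA was sequenced, and the deposited values are raw counts per gene. Animals A, B and C had 17658138, 20213431 and 22954919 counts on genes, and the NT libraries had 17576503 to 23707138. Animal A was male and B and C were female by Xist and Y-linked counts, and 4 of the 8 NT animals were male. The libraries were deposited in 2 sets, and animal C belongs to the second with NT 7 and NT 8, whereas A, B and NT 1 to NT 6 belong to the first. On the first principal component of the 11 libraries, which held 79.6% of the variance, the 3 libraries of the second set lay apart from the other 8. In these 3 libraries each of the 37 mitochondrially encoded genes was listed at 0. For this reason the deposited set was a term in every main test, though not in every alternative. For the genes past the threshold and many of the lists values within each set are given as well. At an equal depth of 13605309 counts, 19787 and 20117 genes were detected in A and B against 18057 to 19664 in NT 1 to NT 6, and 21068 in C against 20997 and 20529 in NT 7 and NT 8. Each treated library thus exceeded every NT library of its own set, and the part of this in the values below was not tested. Expression is given as CPM after TMM normalization, counts scaled to a common library size.

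Only 4 of 16127 genes tested passed an adjusted p of 0.05 (0.0248%), and all 4, Wfdc17, Mpeg1, Lilrb4b and Selenop, were higher at 21.2 mg/kg. Wfdc17 (chr11:83594817-83597095, plus strand, GRCm39) encodes a small secreted protein of activated macrophages. Its expression was 1.67, 5.99 and 9.36 CPM in A, B and C, against 0.193, 0.444 and 0.837 CPM as the lowest, median and highest NT animal. The log2 fold change was 3.49 (SE 0.397, adjusted p = 0.0103, edgeR quasi-likelihood test with Benjamini-Hochberg adjustment), with 3.12 in the first set and 4.26 in the second. Mpeg1 (chr19:12438114-12442649, plus strand) encodes perforin-2, a pore-forming protein of the phagosome. It stood at 7.83, 20.6 and 36.3 CPM, against 1.40, 3.68 and 5.48 CPM in NT, a log2 fold change of 2.41 (SE 0.289, edgeR adjusted p = 0.0103), with 2.20 and 2.85 within the sets. Lilrb4b (chr10:51356728-51362799, plus strand), a receptor of myeloid cells, reached 1.39, 2.35 and 3.43 CPM against 0.171, 0.389 and 0.650 CPM. Its log2 fold change was 2.49 (SE 0.325, edgeR adjusted p = 0.0120), with 2.37 and 2.76 within the sets. Lilrb4b had 25, 49 and 80 counts in A, B and C and 3 to 14 in the NT animals. It would not have entered the test without the treated animals. With no filter on low counts it passed as well. In all 3 genes animal A was the lowest treated animal and C the highest, and no treated animal overlapped any NT animal.

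Selenop (chr15:3298029-3313686, plus strand), the secreted selenium carrier that is also abundant in tissue macrophages, had the highest expression of the 4. Its values were 150, 197 and 259 CPM in A, B and C and 96.2, 107 and 140 CPM in NT, a log2 fold change of 0.80 (SE 0.098, edgeR adjusted p = 0.0103), with 0.74 and 0.91 within the sets. The animals of the groups did not overlap, and NT 7 and NT 8 were the highest controls. Annotated exons on the opposite strand cover 18.2% of the exon bases of Selenop, and whether the counting used strand is not given in the sources used here. Lilrb4b has a closely related neighbour, Lilrb4a, and how reads shared by such copies were counted is likewise not given. Which genes passed depended on single animals, while the log2 fold changes ranged over the alternatives that tested them from 3.10 to 3.97 for Wfdc17, 2.10 to 2.78 for Mpeg1, 2.32 to 2.72 for Lilrb4b and 0.70 to 0.92 for Selenop. Without animal A 16 genes passed, without NT 5 7 passed, and without B, C, NT 7 or NT 8 none did (0 genes each by edgeR, and 668, 968, 724 and 698 with an unadjusted p under 0.05). The first set alone gave 0 genes by edgeR with 790 at that level, and DESeq2 gave 28 genes on the 11 animals.

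**Figure D1:**
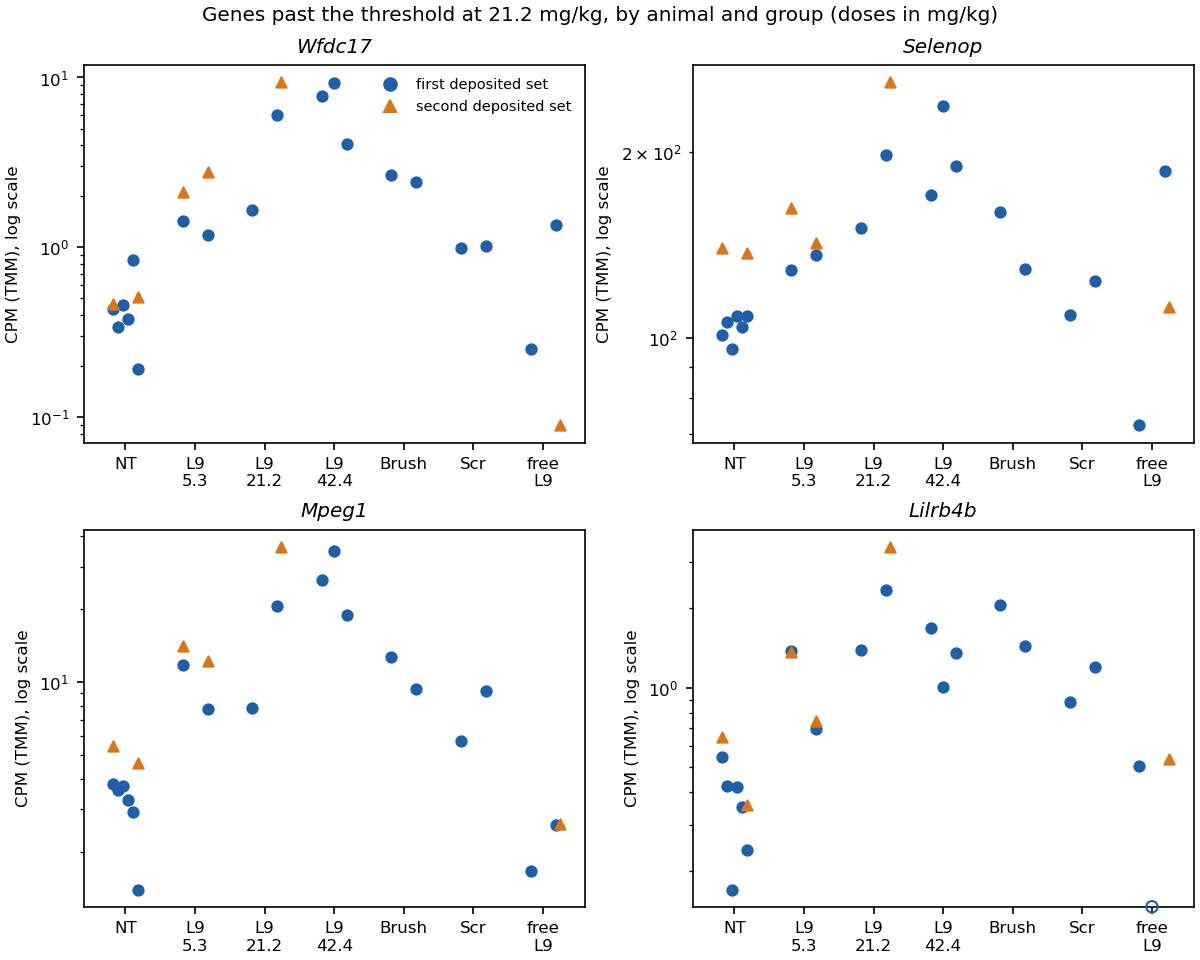
Expression of Wfdc17, Selenop, Mpeg1 and Lilrb4b in CPM (log axis) for each HSA-LR animal, by group, with circles for the first deposited set, triangles for the second and an open marker on the axis for a value of 0. The 3 animals at 21.2 mg/kg lie above all 8 NT animals in each panel.

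At an unadjusted p under 0.05, 455 genes (2.82%) were higher and 265 (1.64%) were lower at 21.2 mg/kg. In 229 genes (1.42%) every treated animal was above, and in 204 (1.26%) below, every NT animal of its own set. The median log2 fold change over all genes tested was −0.01, with quartiles at −0.14 and 0.15. Whether the difference from NT was the same in both sets was asked with an interaction term, and edgeR called 0 genes (765 at an unadjusted p under 0.05, smallest adjusted p = 0.980). The second set has a single treated animal, so its spread is assumed to be like that of the others, and a count of 0 does not show that the sets agree.

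Next on the higher side among the genes named by the rule was Cd68, which did not pass. Cd68 (chr11:69555037-69557067, minus strand), a glycoprotein of the lysosomal membrane used as a macrophage marker, was at 10.7, 21.0 and 16.9 CPM in A, B and C and at 3.09, 5.46 and 6.99 CPM in NT. No animals overlapped, and the log2 fold change was 1.60 (SE 0.245) with an edgeR adjusted p of 0.0622, short of the threshold. Cd33, a sialic acid receptor of myeloid cells, had a log2 fold change of 1.74 (SE 0.293). Plek, a cytoskeletal substrate of protein kinase C in blood cells, had 1.65 (SE 0.282), and Fcna, a ficolin that starts the lectin pathway of complement, had 1.95 (SE 0.333). The adjusted p of each of these 3 genes was 0.0916. Hpse, which cleaves heparan sulfate, followed with 2.14 (adjusted p = 0.132, edgeR). Lyz2, the lysozyme of macrophages, was at 46.0, 107 and 141 CPM against 19.8, 26.0 and 45.1 CPM in NT, and Ctss, a lysosomal cysteine protease of antigen-presenting cells, at 6.27, 15.6 and 20.6 CPM against 1.88, 3.54 and 6.17 CPM. In both, animal A lay just above the highest NT animal and B and C far above it. Without animal A, Cd68, Cd33, Plek, Fcna, Lyz2 and Ctss were among the 16 genes that passed.

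Slc37a2, a sugar phosphate transporter of macrophages, had a log2 fold change of 1.13 (SE 0.241, edgeR adjusted p = 0.291). Zbtb20, a transcriptional repressor, was at 234, 194 and 142 CPM against 83.7, 101 and 151 CPM in NT, so that animal C lay below the highest NT animal, which was of the other set. Its log2 fold change was 0.81 (SE 0.174, edgeR adjusted p = 0.291). Agbl1, an enzyme that removes glutamate from tubulin tails, was at 12.4, 8.25 and 9.27 CPM against 3.39, 5.38 and 6.50 CPM. In Zbtb20 and Agbl1 animal A was the highest treated animal, whereas it was the lowest in Wfdc17, Mpeg1, Lilrb4b and Selenop.

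The promoters of 3 of these genes are shown, those of Wfdc17 and Mpeg1, which passed the threshold, and that of Cd68, which did not. Each is the 250 bases before the start of the gene in RefSeq on GRCm38.p6, read 5′ to 3′ on the strand of the gene, at chr11:83703806-83704055 (plus) for Wfdc17, chr19:12460520-12460769 (plus) for Mpeg1 and chr11:69666171-69666420 (minus) for Cd68. Capitals mark GAGGAA on either strand (TTCCTC on the opposite strand), letters that occur in sites of the macrophage factor PU.1.
Wfdc17: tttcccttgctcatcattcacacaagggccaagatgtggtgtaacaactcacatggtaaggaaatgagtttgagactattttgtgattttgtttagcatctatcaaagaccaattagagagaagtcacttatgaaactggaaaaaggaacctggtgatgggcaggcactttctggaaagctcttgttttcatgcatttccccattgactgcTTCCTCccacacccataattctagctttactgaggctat
Mpeg1: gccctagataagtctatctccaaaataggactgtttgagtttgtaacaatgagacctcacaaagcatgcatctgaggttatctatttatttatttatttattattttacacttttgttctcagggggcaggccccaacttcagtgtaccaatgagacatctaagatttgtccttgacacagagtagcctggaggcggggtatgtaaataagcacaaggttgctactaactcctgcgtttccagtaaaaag
Cd68: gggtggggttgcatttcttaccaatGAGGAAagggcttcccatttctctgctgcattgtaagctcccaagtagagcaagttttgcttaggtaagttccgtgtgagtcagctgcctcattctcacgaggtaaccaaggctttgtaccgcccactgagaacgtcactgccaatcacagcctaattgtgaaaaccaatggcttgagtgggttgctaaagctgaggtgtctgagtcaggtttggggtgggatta
The 6 letters occurred in 1 place each in the promoters of Wfdc17 and Cd68 and in 0 places in that of Mpeg1. Of 32851 promoters of this length in the table, 23.3% held them on either strand. Among the named genes with a promoter in the table, 8 of 13 with higher values and 2 of 8 with lower values held a match. A match describes the sequence only, and binding was not measured.

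Macrophage genes were examined as lists. For the lists here and below, the shares over all genes tested against NT were 2.82% higher and 1.64% lower at an unadjusted p under 0.05. Of 31 genes of phagocytic macrophages 27 had enough counts to be tested, and 12 of these 27 were higher at an unadjusted p under 0.05 and 0 were lower, with Mpeg1 as the single gene past the adjusted threshold. The median log2 fold change was 0.37, with 0.23 in the first set and 1.04 in the second, and 23 of 27 were above 0. Without animal C 7 genes of this list were higher at that level and the median was 0.23, and the first set alone also gave 7. In 5 of the 27 genes the treated animals lay above every NT animal of their set, against 1.42% of all genes tested. Among the members, Ms4a7, a membrane protein of macrophages, had a log2 fold change of 2.38 (SE 0.411, edgeR adjusted p = 0.0916), and its values were 0.888, 3.50 and 4.16 CPM against 0.284, 0.401 and 0.970 CPM in NT, so that A overlapped NT. Lpl, the lipoprotein lipase of macrophages, fat and muscle and the most abundant member, had 0.37 (SE 0.306). The summed level of the list was 1796, 1776 and 2245 CPM in A, B and C and ran from 1246 to 1946 CPM in the NT animals of the first set and from 1374 to 1583 CPM in those of the second. A and B therefore lay within the range of their controls in the sum, to which Lpl contributes most, and C lay above. NT 4 alone set the upper limit of the first set, and A and B lay above its next highest control (NT 5, 1698 CPM).

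Of the genes of resident macrophages, 20 of 23 in the table were tested, with 10 higher and 0 lower at an unadjusted p under 0.05 and 0 past the adjusted threshold by edgeR. Their median log2 fold change was 0.57, with 0.49 in the first set and 0.69 in the second. The counts were 4 higher and 1 lower without animal B, 5 higher and 1 lower without C, and 5 and 1 in the first set alone. Stab1, a scavenger receptor that clears ageing cells, was at 27.1, 38.6 and 17.9 CPM against 8.81, 13.1 and 21.5 CPM in NT. Its log2 fold change was 1.01 (SE 0.215). Adgre1, which encodes the F4/80 antigen, had 1.56 (SE 0.359), and Csf1r, the receptor for macrophage colony-stimulating factor, had 0.70 (SE 0.162). Both lay above every NT animal of the same set in A, B and C. Maf, the most abundant member and a factor also made by other cells, had −0.01 (SE 0.154). The summed level was 327, 493 and 439 CPM in A, B and C, within the first set's NT range of 298 to 365 CPM for A and above the NT range for B and for C (second set, 372 to 408 CPM). In whole muscle, more or fewer cells of a type and more or less RNA per cell cannot be told apart.

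Markers of other cell types gave the following values. Of 12 endothelial markers 0 were higher or lower at an unadjusted p under 0.05 (edgeR, 0 past the adjusted threshold), with a median log2 fold change of −0.10 (0.03 and −0.25 within the sets), and the 12 fibroblast markers also gave 0, with a median of −0.01 (−0.18 and 0.37 within the sets). With 1 animal left out the endothelial median ranged from −0.22 (without A) to 0.03 (without C), with 1 marker higher without B, C or NT 2, and the fibroblast median from −0.18 (without C) to 0.10 (without B), with 1 lower without NT 1, NT 4, NT 6 or NT 8. Of 12 neutrophil markers a single gene, Lcn2, had enough counts to be tested, and of 17 markers of T, NK and B cells only Ighm did. The summed neutrophil level was 1.28, 1.25 and 1.12 CPM in A, B and C. In the NT animals it ran from 0.339 to 33.2 CPM in the first set and from 0.325 to 0.615 CPM in the second. C thus lay above both controls of its set. NT 6 alone reached 33.2 CPM, and the next highest control of the first set was NT 4 at 2.81 CPM. Tendon and cartilage markers had a median of −0.64, with 3 of 9 lower and 0 higher at an unadjusted p under 0.05, among them Thbs4 (−0.59, SE 0.188) and Tnmd (−0.89, SE 0.351), and without A or without B 1 was lower. The tendon median was −0.41 without A and −0.97 without C. The summed tendon level was 188, 303 and 324 CPM in A, B and C, against 267 to 660 CPM in the first NT set and 350 to 378 CPM in the second. Schwann cell and nerve markers had a median of 0.31 (0.53 and −0.08 within the sets) and adipocyte markers −0.18 (−0.68 and 0.84). The Schwann cell median was −0.08 without animal A, 0.53 without C and 0.46 without NT 7. The adipocyte median turned to 0.64 without NT 4 and to 0.29 without A, and ranged from −0.68 (without C) to −0.19 with any other animal left out. NT 4 had a summed adipocyte level of 6096 CPM, against 1352 to 2628 CPM in the other NT animals of the first set. The 12 skeletal muscle markers, led by Acta1, summed to 143683, 159963 and 148114 CPM in A, B and C, against 144135 to 172524 CPM in the first NT set and 165140 to 208492 CPM in the second, so that A and C lay below every NT animal of their sets. Of these muscle markers 1 was lower and 0 higher at an unadjusted p under 0.05, and the median was −0.16. In 2 of the 12 all treated animals lay below every NT animal of the same set, against 1.26% of all genes tested. Without NT 1, NT 3, NT 4 or NT 5 0 muscle markers were lower. Without NT 2, or with library size alone as the normalization, 1 was higher and 0 were lower. The part of these cell types in the macrophage values was not tested.

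**Figure D2:**
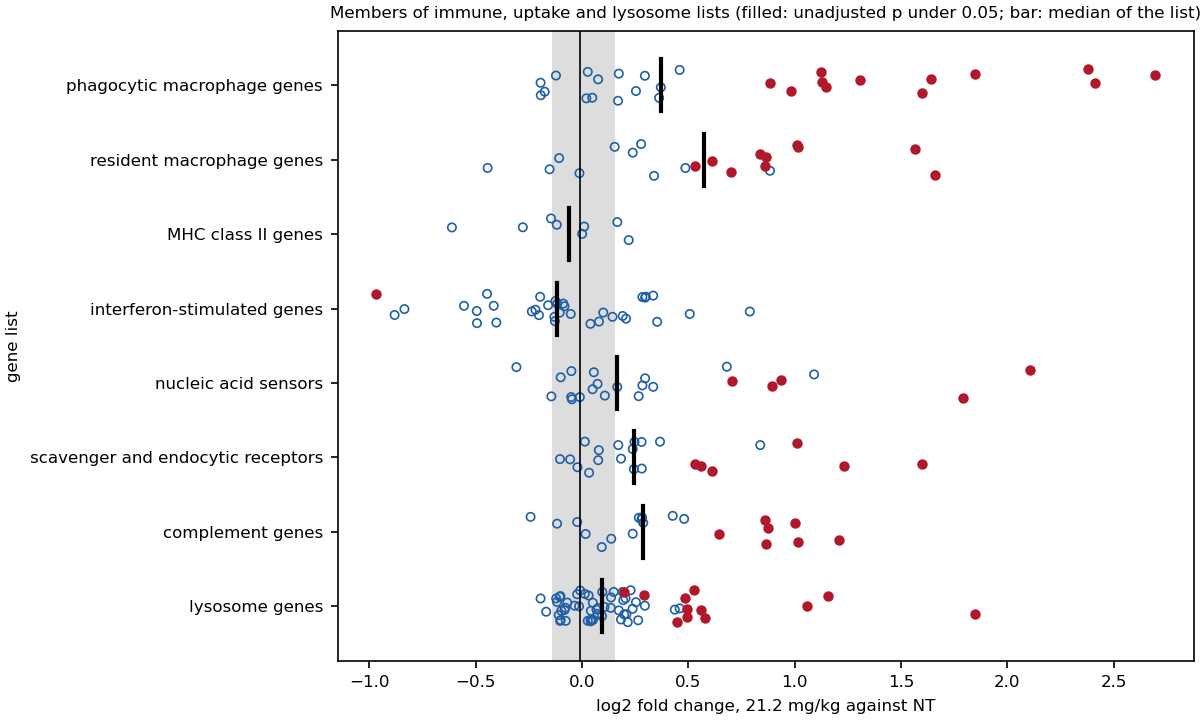
Log2 fold change at 21.2 mg/kg against NT of each tested member of 8 gene lists, filled where the unadjusted p was under 0.05, with a bar at the median of the list, a line at the median of all genes and a grey band between the quartiles of all genes. The medians are 0.37 and 0.57 for the macrophage lists, −0.06 for the MHC class II list and −0.12 for the interferon list, and the band shows the spread of single genes, not of list medians.

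Genes for uptake and digestion gave the following values. Of 63 lysosome genes 12 were higher and 0 lower at an unadjusted p under 0.05, against 2.82% of all genes on the higher side, and the median log2 fold change was 0.10. Ctss (1.85, SE 0.338), Laptm5, a lysosomal membrane protein of blood cells (1.15, SE 0.280), and Man2b1, the lysosomal alpha-mannosidase (0.49, SE 0.127), had the smallest p-values. Psap, the most abundant member, had −0.03. The first and second sets gave medians of 0.04 and 0.28, and 4 lysosome genes were higher without animal C and 9 higher and 1 lower without B. Scavenger and endocytic receptors had 6 of 22 genes higher and a median of 0.25 (0.33 and 0.34 within the sets), and Lrp1, a large endocytic receptor, had 0.56 (SE 0.142), and without C 3 receptors were higher. Complement genes had 7 of 20 higher and a median of 0.29, with C5ar1, the receptor for the C5a fragment, at 1.00 (SE 0.311), C1qc, a chain of the first component, at 1.02 (SE 0.311) and C4b at 0.88 (SE 0.281). The complement count was 1 higher without B and 2 without C, 1 gene was lower without A, and the median was 0.50 without A and 0.45 without NT 4. Except for Cd68 among the receptors and Ctss among the lysosome genes, each of these named members had an edgeR adjusted p above 0.25, and 0 members of the 3 lists passed the adjusted threshold (25 higher and 0 lower entries at an unadjusted p under 0.05). Lists share members, so these entries are not separate from the macrophage lists. Among the receptors, Cd68 is also on the phagocytic and Stab1 on the resident macrophage list.

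The conjugate carries an oligonucleotide, and receptors for nucleic acids were listed for that reason. Of 23 nucleic acid sensors 5 were higher and 0 lower at an unadjusted p under 0.05, against 2.82% of all genes on the higher side, with a median of 0.17. Without C 3 sensors were higher, and the median was 0.26 without NT 1 and 0.10 without NT 8. Tlr13, which senses bacterial ribosomal RNA in endosomes, was at 0.555, 1.29 and 2.70 CPM against 0.057, 0.370 and 0.488 CPM in NT (log2 fold change 2.11, SE 0.505, edgeR adjusted p = 0.466). Its counts were 10, 27 and 63 in A, B and C and 1 to 10 in the NT animals. Tlr13 would not have entered the test without the treated animals. Tlr7, the endosomal receptor for single-stranded RNA, had 1.79 (SE 0.443), and Unc93b1, which carries these receptors to endosomes, had 0.71 (SE 0.203). All are made by macrophages. The 35 interferon-stimulated genes tested gave 0 higher and 1 lower at an unadjusted p under 0.05, Tap1 (−0.97, SE 0.436), and a median of −0.12 (−0.19 and 0.21 within the sets). This median was 0.02 without NT 4, whose summed level was 388 CPM against 127 to 210 CPM in the other NT animals, and 0.01 without A, −0.05 without B and −0.19 without C. Of 8 MHC class II genes 0 were higher or lower (0 adjusted, edgeR) and the median was −0.06, with −0.31 in the first set and 0.22 in the second, 0.12 without A, −0.31 without C and −0.24 without NT 8, and with Cd74, the invariant chain, at −0.28. Of 31 cytokines and chemokines 13 were tested, 1 was higher and 0 were lower, the chemokine Ccl6 (1.32, SE 0.444), with values of 2.33, 8.25 and 15.5 CPM in A, B and C against 1.97, 2.63 and 6.08 CPM.

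No gene was lower at 21.2 mg/kg past the adjusted threshold by edgeR, with 265 lower at an unadjusted p under 0.05 and 6 lower by DESeq2. Retnla, a secreted protein of alternatively activated macrophages and of fat, was the named gene with the smallest p on this side. It was at 2.83, 6.19 and 8.41 CPM against 12.1, 15.7 and 27.0 CPM in NT, with no overlap, and its log2 fold change was −1.62 (SE 0.323, edgeR adjusted p = 0.262), with −1.95 and −0.98 within the sets. With sex as a further term it was the 1 lower gene among 9 that passed. Animal A was the lowest treated animal in Retnla as in Wfdc17 and Mpeg1, so it lay farthest from NT here and nearest to NT there. Ddit4l, an inhibitor of mTOR signalling in muscle, was at 213, 249 and 156 CPM against 283, 317 and 350 CPM (−0.61, SE 0.130). Rxrg, a retinoid receptor of muscle, had −0.49 (SE 0.109), and Ifngr2, a chain of the interferon gamma receptor, had −0.56 (SE 0.135). Atf4, the transcription factor of the integrated stress response, was at 134, 131 and 128 CPM against 155, 172 and 206 CPM in NT, a log2 fold change of −0.40 (SE 0.105). In Atf4 the 3 treated animals lay close together and below all NT animals.

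The remaining lower genes named by the rule were Vwa3b (−0.83), Cfap77 (−1.47), Prss55 (−1.89), Tpbgl (−0.52) and Tmem250 (−0.39), with edgeR adjusted p-values from 0.286 to 0.670. Cfap77, a protein of ciliary microtubules, and Prss55, a protease of the testis, were under 3 CPM in all 11 animals. For Tpbgl, exons of the opposite strand cover 54.7% of its exon bases. Some of these genes also differ between WT and NT animals, a comparison that shares the 8 NT mice. In WT, Vwa3b stood at −2.06 (SE 0.203) and Cfap77 at −3.35 (SE 0.400) against NT, Tmem250 at −0.78 (SE 0.131) and Rxrg at 0.75 (SE 0.153), each past the adjusted threshold in the edgeR fit of all 30 libraries. Cd68 was lower in WT than in NT as well (−1.54, SE 0.302, edgeR adjusted p = 0.00163). Wfdc17, Selenop, Mpeg1 and Lilrb4b had WT against NT values of 0.44, 0.12, −0.32 and 0.20, with adjusted p-values of at least 0.631.

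**Figure D3:**
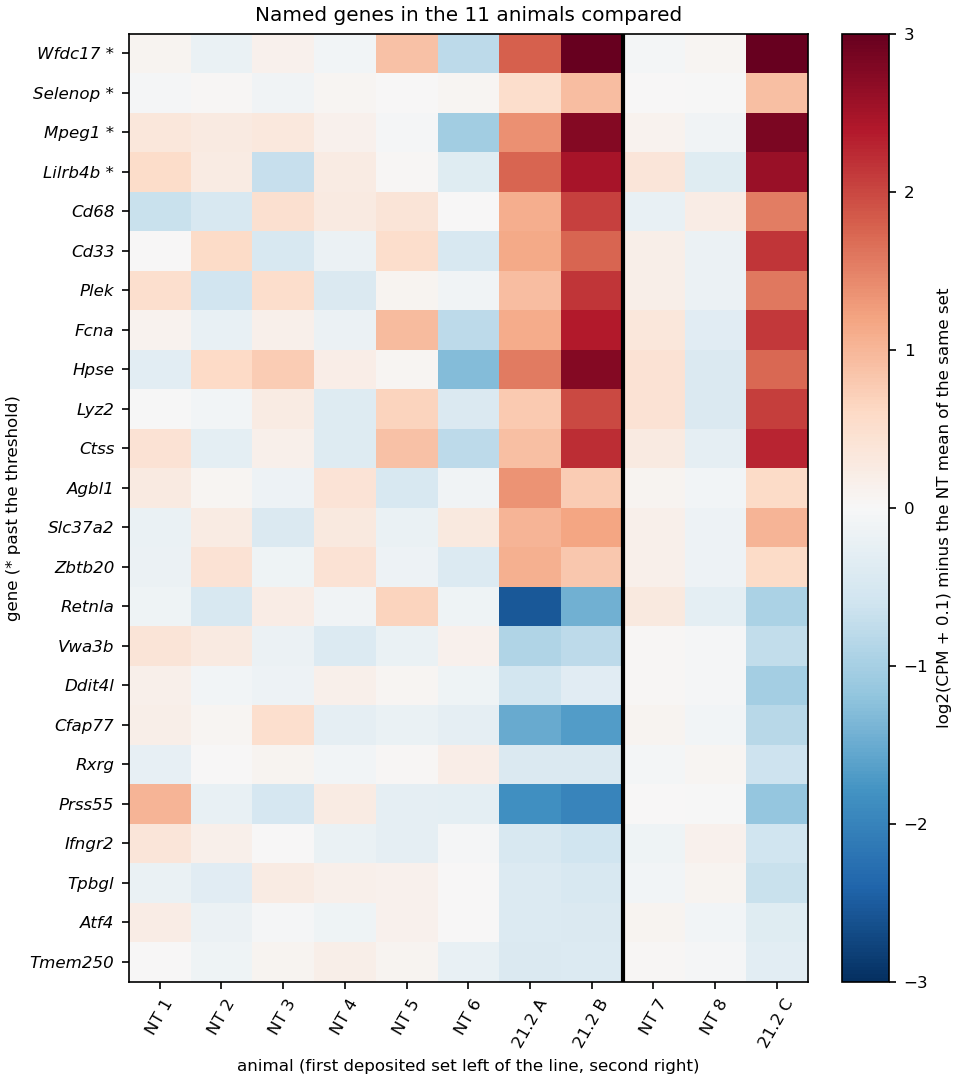
Difference of log2(CPM + 0.1) from the NT mean of the same deposited set for the 24 named genes (vertical axis) in the 11 animals (horizontal axis), red for higher and blue for lower, with a black line between the sets. Animal A is paler than B and C in the genes from Wfdc17 to Ctss at the top.

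The 3 doses were then placed side by side in a fit of 18 libraries in which all share the 8 NT animals. Wfdc17 had log2 fold changes of 1.78 (SE 0.377), 3.47 (SE 0.364) and 4.13 (SE 0.364) from the lowest to the highest dose, and Mpeg1 had 1.50, 2.43 and 3.10. Selenop had 0.26, 0.80 and 0.91, and Lilrb4b had 1.29, 2.51 and 1.87. The doses were also compared directly, without NT in either arm. Between 21.2 and 5.3 mg/kg edgeR called 0 of 16661 genes, with 453 at an unadjusted p under 0.05, and DESeq2 called 2. Between 21.2 and 42.4 mg/kg 346 genes differed, 186 (1.12%) higher and 160 (0.960%) lower at 21.2 mg/kg. Wfdc17 (−0.66, SE 0.435), Mpeg1 (−0.67, SE 0.355), Selenop (−0.11, SE 0.135) and Lilrb4b (0.64, SE 0.410) were not among them, with edgeR adjusted p-values from 0.373 to 0.742.

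Of the 24 named genes, Zbtb20 and Atf4 differed between 21.2 and 42.4 mg/kg. Zbtb20 was higher at 21.2 mg/kg by 0.90 (SE 0.204, edgeR adjusted p = 0.0287), with values of 95.1, 120 and 120 CPM at 42.4 mg/kg, and Atf4 was lower by a log2 difference of −0.74 (SE 0.158, edgeR adjusted p = 0.0252), with 218, 234 and 208 CPM at 42.4 mg/kg. Atf4 did not overlap between these doses. Among the lists, 7 of 22 atrophy genes under FoxO control were lower at 21.2 than at 42.4 mg/kg and 0 higher, and in the fit of 18 libraries the list median against NT was 0.05 at the lowest, 0.04 at the middle and 1.40 at the highest dose. Of the phagocytic macrophage genes 1 was lower at 21.2 mg/kg, Ctsl, named after its value was seen, and of the resident macrophage genes 0 differed. All 3 animals at 42.4 mg/kg belong to the first set, and 18277, 18225 and 18200 genes were detected in them at equal depth, against 19787 to 21068 at 21.2 mg/kg. The 3 animals at 42.4 mg/kg were female by Xist and Y-linked counts, while 21.2 mg/kg A was male, and sex was not a term here. The part of these differences in the 346 genes was not tested. The count fell to 43 without 21.2 mg/kg A, 60 without 21.2 mg/kg B and 69 without 42.4 mg/kg B, and was 225 without 42.4 mg/kg C and 61 without the set term. The balance of directions turned under some alternatives. Without 42.4 mg/kg A 113 were higher and 212 lower at 21.2 mg/kg, and with DESeq2 348 and 412. Without 21.2 mg/kg C 219 were higher and 127 lower.

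Carriers without L9 can be placed beside these values, without a test of their own. Mpeg1 was at 12.8 and 9.37 CPM with Brush and at 5.74 and 9.26 CPM with pacDNA-Scr, all above the highest NT animal (5.48 CPM), and at 1.66, 2.58 and 2.59 CPM with free L9. Wfdc17 was at 2.66 and 2.43 CPM with Brush, at 0.996 and 1.02 CPM with pacDNA-Scr and at 0.252, 1.35 and 0.089 CPM with free L9. For Selenop, Brush gave 160 and 130 CPM, pacDNA-Scr 109 and 124 CPM and free L9 72.4, 186 and 112 CPM. The Brush and pacDNA-Scr animals belong to the first set, where NT reached 109 CPM, and both Brush animals and 1 pacDNA-Scr animal lay clearly above that value, while NT 7 and NT 8 of the second set were at 140 and 137 CPM. Free L9 B (186 CPM) had 22.3% mitochondrial counts and 14438 genes at equal depth. In NT 1 to NT 6 these were 6.17% to 8.97% and 18057 to 19664 genes. Free L9 C (112 CPM) was deposited in the second set but, unlike the other libraries of that set, held mitochondrial counts (12.0%), and its Selenop value lies between those of the NT animals of the 2 sets. Doses differ between these groups and 21.2 mg/kg, so they are not compared with that dose.

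**Figure D4:**
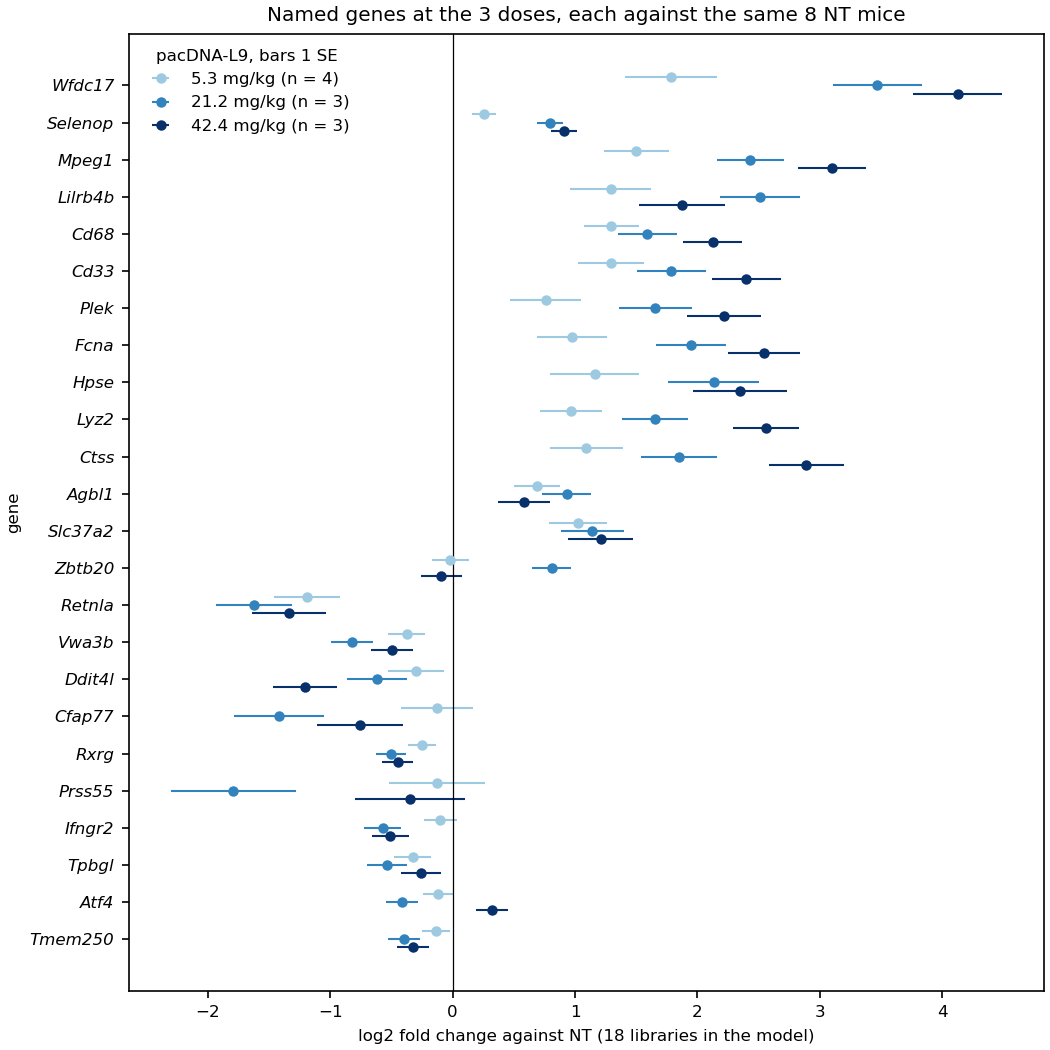
Log2 fold change against NT of the 24 named genes at each dose of pacDNA-L9 (points; 5.3 mg/kg pale, 21.2 mg/kg medium, 42.4 mg/kg dark) with 1 standard error (bars), from a fit of 18 libraries in which all doses share the 8 NT animals. Atf4 lies below 0 at 21.2 mg/kg and above 0 at 42.4 mg/kg, and Zbtb20 lies above 0 at 21.2 mg/kg and within 1 standard error of 0 at 42.4 mg/kg.

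Transcripts of the mouse with short CTG repeats could also pair with L9. The study lists 21 genes for short repeats, of which Nr3c1 and Dap are marked for CAG instead of CTG. No CTG run of 3 or more units was found in the annotated transcripts of Dap, Bpgm and Papss2. Runs in Nr3c1 and Tcf4 are not reported here. Of the 21 listed genes, all tested, 1 was higher and 1 was lower at an unadjusted p under 0.05 (0 to 2 in either direction with 1 animal left out) and the median log2 fold change was −0.02. Dmpk, whose human homologue carries the repeat in patients, was at 542, 683 and 366 CPM in A, B and C against 376, 527 and 648 CPM in NT (0.06, SE 0.155), so that C lay below and B above all NT animals. Repeat sites of 5 of these genes are shown to compare repeat length and place, with the run in capitals, on the strand of the gene in GENCODE vM39 on GRCm39.
Dmpk: gcctctcgccCTGCTGCTGggctccgatc
Sdc3: ccaccgCTGCTGCTGCTGCTGCTGgccggc
Txlnb: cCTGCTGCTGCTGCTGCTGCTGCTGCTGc
Mllt3: gagCTGCTGCTGCTGCTGCTGCTGCTGctt
Tacc1: ccgCTGCTGCTGCTGCTGCTGCTGCTGcgg
The run lies in the coding sequence of Dmpk (3 units, chr7:18826423-18826431, plus) and Sdc3 (6 units, chr4:130520078-130520095, plus), in the 5′ UTR of Txlnb (9 units, chr10:17672078-17672104, plus) and Mllt3 (8 units, chr4:87951538-87951561, minus) and in the 3′ UTR of Tacc1 (8 units, chr8:25649575-25649598, minus). Sdc3, a heparan sulfate proteoglycan, was the higher gene (0.28, SE 0.119, unadjusted p = 0.0360 by edgeR). Txlnb, a muscle taxilin, had 0.26 (SE 0.178), Mllt3, a reader of histone acylation, −0.14 (SE 0.112), and Tacc1, a centrosomal protein, 0.06 (SE 0.149). The lower gene was Bpgm, the bisphosphoglycerate mutase, with 79.5, 82.6 and 96.7 CPM against 93.2, 104 and 123 CPM (−0.29, SE 0.112, unadjusted p = 0.0237 by edgeR). Mapkap1 and Fgd4, with 25 and 21 units, had 0.15 (SE 0.096) and 0.10 (SE 0.169).

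Over all genes, 3445 of 16049 tested genes with an annotated transcript (21.5%) held the 9 letters CTGCTGCTG, which can pair with all of L9, in a transcript on the sense strand. Among genes lower at an unadjusted p under 0.05 the share was 51 of 264 (19.3%) and among higher genes 100 of 455 (22.0%). Genes with a run of at least 5 units (241 genes) had a median log2 fold change of 0.06 with 1 lower at that level, and those with at least 8 units (44 genes) had 0.06 with 0 lower (edgeR, 0 past the adjusted threshold). Genes with a match had longer exon sequence than genes without (median 7413 against 5025 bases), and the part of length in these shares was not tested.

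Genes known to differ in HSA-LR muscle did not pass the test at 21.2 mg/kg. Of 9 such genes 0 were higher or lower at an unadjusted p under 0.05 (0 adjusted, edgeR), and the median log2 fold change was −0.16, while the median of WT against NT for the same genes was −1.16. Without NT 6 the median at 21.2 mg/kg was −0.08. The members do not share a direction in WT. Their summed level was 3268, 517, 810, 429 and 264 CPM in the 5 WT animals, against 209 to 271 CPM in first-set NT animals. The 2 medians therefore do not measure a share of a change toward WT. Sln, the sarcolipin that inhibits the calcium pump, was at 72.2, 115 and 52.7 CPM against 38.1, 75.9 and 108 CPM in NT (0.18, SE 0.214), and at −5.14 (SE 0.444) in WT. Myo1a, a brush border myosin, was at 24.6, 30.3 and 35.5 CPM against 22.3, 28.1 and 58.6 CPM in NT (−0.11, SE 0.266), and at −5.34 (SE 0.429) in WT. Ccdc192 had −0.16 (SE 0.256), and Actc1, the cardiac actin, −0.36 (SE 0.410). The list was drawn up with these data known and is not independent evidence of a direction. Transcript levels of 23 genes mis-spliced in the disease gave 0 past an unadjusted p of 0.05 and a median of 0.09 (0.16 and −0.16 within the sets), with Clcn1, the muscle chloride channel, at 0.33 (SE 0.169) and Atp2a1, the fast calcium pump, at −0.14. Without NT 2 4 of these genes were higher, without C or NT 8 3, without NT 4 or NT 6 1, and without B 1 was lower, while the first set alone gave 4 higher. The 25 splicing regulators also gave 0, with a median of −0.06 (−0.10 without A and −0.03 without C or NT 7). With 1 animal left out at most 1 regulator was higher and at most 2 were lower. Exon use was not analysed here.

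Fibre type genes gave the following values. All 13 slow fibre genes had log2 fold changes above 0, from 0.60 to 1.44 with a median of 0.93 (1.20 and 0.57 within the sets), while 2 of 13 were higher at an unadjusted p under 0.05 and 0 past the adjusted threshold by edgeR. Casq2, the slow and cardiac calsequestrin, was at 33.1, 28.9 and 33.2 CPM against 8.03, 15.4 and 36.5 CPM in NT, and Ankrd2, a stretch-responsive protein of slow fibres, at 139, 169 and 148 CPM against 36.0, 74.1 and 143 CPM. For Casq2, A and B lay above the 6 NT animals of their set and C lay within the second set's NT values. For Ankrd2, B and C lay above the NT animals of their set and A did not. The summed slow fibre level was 1883, 917 and 2340 CPM in A, B and C. It varied from 245 to 1561 CPM among the NT animals of the first set, and from 1099 to 2292 CPM among those of the second. A and C thus lay above their controls and B within them. NT 6 alone set the upper limit of the first set, and B lay above its next highest control (NT 3, 678 CPM). Without animal A the median was 0.25, and without NT 6 5 slow fibre genes were higher. Medians of this list against NT at 5.3 and 42.4 mg/kg were 0.98 and 1.98. Of 15 fast fibre genes 2 were lower and 0 higher at an unadjusted p under 0.05, Tpm1 (−0.36, SE 0.141) and Pvalb, parvalbumin (−0.50, SE 0.214), and the median was −0.21. The fast fibre median was −0.13 without A. With 1 animal left out the fast fibre count ranged from 0 (without A) to 4 lower (without B or NT 7).

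Other muscle lists held few genes at an unadjusted p under 0.05, where 2.82% of all genes tested were higher and 1.64% lower. Potassium channels had 4 of 17 higher and 0 lower, with a median of 0.21, among them Kcnq5 (0.43, SE 0.134) and Kcnma1, the large-conductance calcium-activated channel (0.46, SE 0.147). Extracellular matrix genes had 3 of 49 lower and 0 higher, with a median of −0.29 (−0.34 and −0.06 within the sets), and the medians at 5.3 and 42.4 mg/kg were 0.38 and −0.03. Tnc, tenascin C, had −0.61 and Thbs1, thrombospondin 1, −0.64. Fatty acid genes had 3 of 49 higher, and 0 lower, led by Ppara, a nuclear receptor for fatty acids, at 12.3, 6.33 and 7.00 CPM against 2.06, 3.89 and 6.68 CPM (1.04, SE 0.298). Glycolysis genes had 3 of 39 lower and a median of −0.14. Of 22 atrophy genes 1 was higher, Klf15 (0.33, SE 0.153), and 1 lower, Cdkn1a, the cell cycle inhibitor p21 (−0.52, SE 0.177). Integrated stress response genes had 2 of 27 lower, Atf4 and Aldh18a1, an enzyme of proline synthesis (−0.70, SE 0.259), and a median of −0.14. These values moved with single animals. Higher atrophy genes were 3 without NT 5 and 0 without B, C, NT 1, NT 2, NT 4, NT 7 or NT 8, and lower ones 0 without A or C. The matrix median was −0.19 without NT 1 and −0.10 without NT 7, and that of the stress response −0.08 without B. Higher potassium channels were 2 without B, lower matrix genes 0 without A, 7 without C or NT 6 and 11 without NT 8, higher fatty acid genes 0 without A, 1 without NT 5 or NT 7 and 10 without B, and lower glycolysis genes 0 without A, 5 without NT 7 and 1 without NT 1, NT 2, NT 3 or NT 8. No member of these lists passed the adjusted threshold by edgeR. The lists not described here, such as actin, autophagy, heat shock, circadian and proteasome genes, had medians from −0.16 to 0.12 and at most 2 members in either direction at an unadjusted p under 0.05.

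Many lists had medians on different sides of 0 in the 2 sets, 28 of 51 with at least 5 genes tested. Leaving out 1 animal moved the number of members at an unadjusted p under 0.05 by over 1.5 times, or to or from 0, in 47 of these 51 lists, and turned the sign of the median in 26. Glucocorticoid receptor targets had −0.01 in the first set and 0.96 in the second, adipocyte markers −0.68 and 0.84, nuclear genes of oxidative phosphorylation −0.25 and 0.34, cytosolic ribosomal protein genes −0.29 and 0.26, and proteasome genes −0.21 and 0.06, beside the fibroblast, MHC class II and interferon lists given above. Over both sets the glucocorticoid median was 0.24, or 0.56 without B and −0.02 without C, and the adipocyte medians depend on NT 4 as given above. The difference between sets was tested per gene by the interaction term, with 0 genes called by edgeR as given above, and not per list. The macrophage, complement, scavenger receptor and slow fibre lists had medians above 0 in both sets. So did potassium channels (0.22 and 0.08), nucleic acid sensors (0.13 and 0.30) and lysosome genes (0.04 and 0.28). Fatty acid genes (0.07 and 0.14) and smooth muscle and pericyte markers (0.19 and 0.01) did as well. In the second set the value rests on animal C alone.

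**Figure D5:**
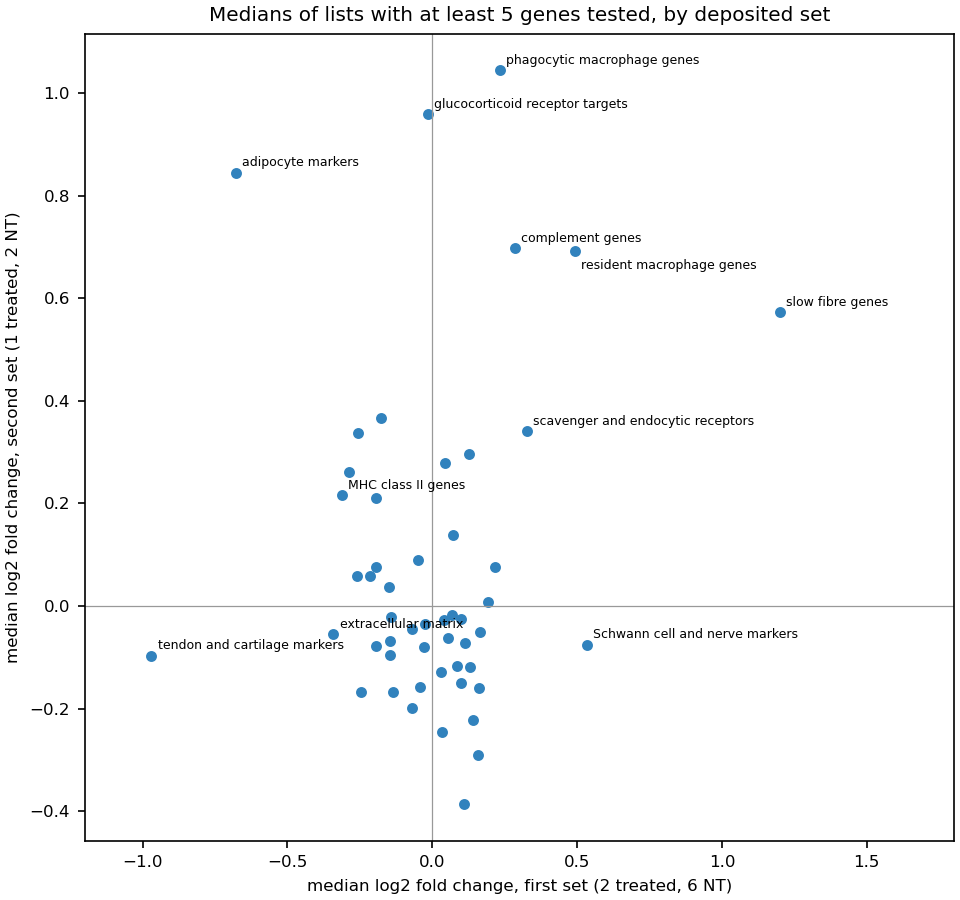
Median log2 fold change of each gene list with at least 5 genes tested in the first deposited set (horizontal axis, 2 treated and 6 NT animals) and in the second (vertical axis, 1 treated and 2 NT animals). Slow fibre, macrophage, complement and scavenger receptor lists lie in the upper right quadrant. The potassium channel, nucleic acid sensor, lysosome, fatty acid and smooth muscle lists lie there too.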

How the data were processed

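RNA from the quadriceps of 30 mice was poly(A)-enriched and sequenced by the authors, who deposited raw read counts for 56748 genes mapped to GRCm39. The submitters' processing notes name HISAT2 2.0.5 and DESeq2. The counting options, annotation release and use of strand are not given in the sources used here. Of the genes, 56017 were matched to GENCODE vM39. Columns were assigned to animals by the column names in the labels, except that 1 WT column was matched to its group only, and 0 value columns were left unused.

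Counts of the 11 libraries were filtered by filterByExpr, normalized by TMM and tested with edgeR 4.0.16 (robust quasi-likelihood F-test) in R 4.3.3, with group and deposited set as terms. Benjamini-Hochberg adjustment ran over the 16127 genes tested, and the threshold was 0.05. The doses were compared in 18 libraries and WT with NT in 30. The standard error is the log2 fold change divided by the square root of F. CPM use TMM factors over all 30 libraries. Mice of a group are taken as separate animals. Counts of same-group libraries in a set differed by more than sampling noise (chi-square per degree of freedom 22.0 to 117). The procedure was tested on simulated data.

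The text names every gene past the threshold and the 10 higher and 10 lower genes with the smallest unadjusted p that averaged at least 1 CPM and did not overlap within either set. From each of 54 gene lists it may name members past the threshold, the 3 with the smallest p and the most abundant. Members, lists and rules were chosen with earlier results of these data known, so lists are described by counts and medians, with no test over a list. Alternatives were other normalizations and filters, no set term, the first set only, no robust estimation, more libraries in the fit, DESeq2 1.42.0, sex as a term, no mitochondrial genes, a replicate block, and each animal left out in turn.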

Additional observations from a re-analysis of the deposited data

Results flagged for a closer look

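Outside the comparisons of the 21.2 mg/kg animals, a pair of groups that received the polymer without L9 had values above all 8 NT animals for 3 of the 4 genes past the threshold. With Brush (n = 2) the means were 2.55 CPM for Wfdc17, 11.1 CPM for Mpeg1 and 1.75 CPM for Lilrb4b, where the highest NT animals had 0.837, 5.48 and 0.650 CPM. With pacDNA-Scr (n = 2) they were 1.01, 7.50 and 1.04 CPM. All of these animals belong to the first set. For Selenop they had 160 and 130 CPM with Brush and 109 and 124 CPM with pacDNA-Scr, where NT reached 109 CPM in the first set and 140 CPM in the second. With free L9 at least 1 animal of 3 lay within the NT values of its set for Wfdc17, Mpeg1 and Lilrb4b. For Wfdc17, however, 1 lay above and 1 below all NT animals. For Selenop 1 lay above and 1 below all NT animals and the third between the NT animals of the 2 sets. The animal above was free L9 B for both genes, and its library had 22.3% mitochondrial counts. These groups were not tested against NT here. Of 28 measures checked in the NT animals (CPM of the 24 named genes, library totals, genes at equal depth and the summed levels of both macrophage lists), 0 had an animal far from the others by Dixon's criterion, which chance meets in about 1 group of 20.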

How the results depend on the processing

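The count of 4 genes at 21.2 mg/kg against NT was 4 with relative log expression normalization, without robust estimation and without mitochondrial genes, and 5 with library size alone. It was 12 without a filter on low counts, 2 with at least 10 counts in every library, 14 with 18 libraries and 12 with 30 libraries in the model, 28 with DESeq2 and 9 with sex as a term. It was 0 without a set term (413 at an unadjusted p under 0.05 by edgeR) and in the first set alone (790). With 1 animal left out at a time it ranged from 0 (without 21.2 mg/kg B, 21.2 mg/kg C, NT 7 or NT 8) to 16 (without 21.2 mg/kg A), and was 7 without NT 5. Without NT 7 or NT 8 fewer genes were tested (14722 and 14760). With at least 10 counts in every library Wfdc17 and Lilrb4b were not tested, since they had 4 counts in NT 6 and 3 in NT 3. The causes of the other shifts were not tested. Mpeg1 and Selenop were called in each setting that called any gene except that Selenop was not called with 30 libraries.

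Against 5.3 mg/kg the count was 3 without a filter, 2 with DESeq2 and 0 under every other setting, each animal left out in turn included (0 to 0). Against 42.4 mg/kg, 346 became 342 with relative log expression normalization, 536 without a filter, 61 without a set term, 112 with 30 libraries and 760 with DESeq2, and it ranged from 43 to 346 with 1 animal left out.

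Whether replicate letters pair the doses could not be judged, since only animals A and B of 21.2 mg/kg share a set and their deviations from the mean mirror each other. Deviations of same-letter animals correlated at −0.03 on average between 21.2 and 5.3 mg/kg and at −0.16 between 21.2 and 42.4 mg/kg. Between WT and NT, animals of the same number correlated at 0.17 on average (0.24, 0.09, 0.06 and 0.28) and those of different numbers at −0.03. Not every such correlation was over 0.1, and 2 of the 4 WT animals correlated best with the NT animal of their own number. With the letter as a replicate block, in 6 libraries, 0 genes were called against 5.3 mg/kg (506 at an unadjusted p under 0.05) and 0 against 42.4 mg/kg (1402), where the same 6 libraries without the block gave 0 and 0 (592 and 1524). Against 42.4 mg/kg the fit with the block also held the set term and the fit without it did not. Those 2 fits therefore differ by more than the block. For WT against NT the block on the number gave 631 genes in 8 libraries, 680 without it there and 930 in the full fit.

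The median log2 fold change of the phagocytic macrophage list ranged from 0.23 to 0.55 and that of the resident macrophage list from 0.39 to 0.65 with 1 animal left out. Leaving out NT animals for the lists was an alternative chosen after seeing the data. Over 547 repeats for the 24 named genes, 476 kept their side of the threshold, 25 lost it, 46 gained it and 0 reversed. Of 756 recomputed list medians 46 moved by more than 1 SD between NT animals. Genes under 1 CPM rest on few counts.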
